A study of Mus musculus with 58 samples.

Results

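The carboxylesterase genes of mouse liver were followed in liver tumors and in normal liver of mice given adeno-associated virus (AAV). The 10 genes are Ces1b, Ces1c, Ces1d, Ces1e, Ces1f, Ces1g, Ces2a, Ces2e, Ces3a and Ces3b, out of 22180 genes tested. They were taken from a list of the family, as those read by an array feature (a transcript cluster) that carries a single gene symbol. Each of the 10 had 1 such cluster, so no gene rests on a choice between clusters. The arrays comprised 29 tumors and 29 normal livers. All animals, those that gave normal liver included, were injected with AAV as newborns and sampled as adults, and all were of a mixed FVB/NJ, C57BL/6 and 129/Sv background, so no liver without AAV is part of the comparison. Read strictly, the titles name 39 animals. Of these, 18 gave 1 tumor and 1 normal liver, and 1 gave 2 tumors. Normal livers 26 and 27 have the same animal number in their titles, with different marks, and were counted as separate animals. A few other titles are also close to each other, and a looser reading was tried as an alternative. The gender labels give 11 female and 17 male tumors, 9 female and 20 male normal livers, and none for 1 tumor. Some titles carry a -/- or +/- mark whose gene the labels do not name, and 1 normal liver title carries GFP. No label used here states the dose, the vector design or the exact age.

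Carboxylesterases are serine hydrolases that cleave ester and amide bonds. In liver most of them sit in the lumen of the endoplasmic reticulum of hepatocytes, where they activate or inactivate ester drugs and toxins and hydrolyse stored lipid, and a few are secreted into the blood. The mouse family has expanded by tandem gene duplication into neighbouring copies on one chromosome, so its members are close in sequence. Probes of one paralog may therefore also read another, which was not tested here because probe sequences were not used.

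Sequences upstream of the gene start were available for 7 of the 10 genes in RefSeq (assembly GRCm38.p6), and Ces1d, Ces1f and Ces3a had no entry. The 6 shown here are the 2 most similar paralog pairs and the 2 genes with a TATA box match, and each gives the 250 bases before the start, 5′ to 3′ on the gene's strand. They lie at chr8:93080018-93080267 on the minus strand for Ces1b, chr8:93131284-93131533 on the minus strand for Ces1c, chr8:104733753-104734002 on the plus strand for Ces2a, chr8:104926010-104926259 on the plus strand for Ces2e, chr8:93337210-93337459 on the minus strand for Ces1g and chr8:105083505-105083754 on the plus strand for Ces3b. Capitals mark the longest run of identical bases shared within a pair in the first 4 sequences, and the TATA box match in the last 2.
Ces1b: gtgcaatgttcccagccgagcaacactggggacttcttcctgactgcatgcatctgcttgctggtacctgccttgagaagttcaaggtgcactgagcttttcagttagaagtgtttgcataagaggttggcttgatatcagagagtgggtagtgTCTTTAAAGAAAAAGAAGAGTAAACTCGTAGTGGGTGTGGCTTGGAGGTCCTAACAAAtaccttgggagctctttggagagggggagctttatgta
Ces1c: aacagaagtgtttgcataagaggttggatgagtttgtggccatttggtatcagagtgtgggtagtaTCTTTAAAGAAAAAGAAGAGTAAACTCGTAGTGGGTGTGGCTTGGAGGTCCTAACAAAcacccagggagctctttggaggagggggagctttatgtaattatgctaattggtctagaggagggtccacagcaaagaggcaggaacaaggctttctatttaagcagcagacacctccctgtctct
Ces2a: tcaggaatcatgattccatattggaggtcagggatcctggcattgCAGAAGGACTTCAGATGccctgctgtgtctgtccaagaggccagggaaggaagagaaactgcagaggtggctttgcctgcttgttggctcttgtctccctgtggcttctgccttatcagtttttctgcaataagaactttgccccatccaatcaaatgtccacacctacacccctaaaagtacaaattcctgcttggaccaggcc
Ces2e: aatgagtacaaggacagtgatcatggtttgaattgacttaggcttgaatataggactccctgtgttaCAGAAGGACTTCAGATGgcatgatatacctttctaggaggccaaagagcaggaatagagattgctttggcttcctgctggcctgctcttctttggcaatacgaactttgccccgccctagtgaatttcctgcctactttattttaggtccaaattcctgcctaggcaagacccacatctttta
Ces1g: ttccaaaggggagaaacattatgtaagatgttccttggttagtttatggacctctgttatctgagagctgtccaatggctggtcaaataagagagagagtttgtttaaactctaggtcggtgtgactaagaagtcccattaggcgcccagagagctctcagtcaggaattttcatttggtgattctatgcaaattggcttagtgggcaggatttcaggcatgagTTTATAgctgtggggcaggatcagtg
Ces3b: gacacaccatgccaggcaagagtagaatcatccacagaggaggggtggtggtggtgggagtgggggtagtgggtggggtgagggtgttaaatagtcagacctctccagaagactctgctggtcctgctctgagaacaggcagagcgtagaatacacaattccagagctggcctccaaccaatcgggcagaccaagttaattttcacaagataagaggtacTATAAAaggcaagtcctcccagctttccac

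Ces1b and Ces1c shared an identical run of 58 bases, at -96 to -39 from the start of Ces1b and at -184 to -127 from that of Ces1c. Ces2a and Ces2e shared 17 bases, and the other pairs of the 7 genes had runs of 7 to 11 bases in common. A C/EBP-type motif (TTGCNNAA, either strand) was found in 4 of the 7 sequences, those of Ces1b, Ces1c, Ces2a and Ces2e, against 9.56% of 32851 mouse promoter sequences of the same length. The motif stood at -136 to -129 in Ces1b and at -239 to -232 in Ces1c, with the same bases next to it in both. These 4 genes form the paralog pairs shown, so their matches need not be independent of each other. A TATA box motif (TATAAA, either strand) was found in Ces1g at -26 to -21, as its reverse complement, and in Ces3b at -30 to -25, against 12.4% of all promoters. The nuclear receptor half-site AGGTCA was found in 1 of the 7 sequences (Ces2a; 14% of all promoters) and the HNF1 half-site GTTAAT in 1 (Ces3b; 6.43%). The HNF4 core CAAAGTCCA (0.384% of all promoters) and the FOXA motif TGTTTAC (3.17%) were found in 0 of the 7. The motifs searched do not overlap each other in these sequences. A match describes letters in this window and no more.

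Several arrays stood apart from the others. Tumor 9 had a mean correlation of 0.839 with the other arrays, against 0.914 for the array next above it. In tumor 9 the mean level of 13 hepatocyte markers was 7.48 on the log2 scale, against a median of 12.40 over all tumors, and its B and plasma cell markers averaged 12.22. In the other 28 tumors the hepatocyte marker mean was 11.84 or more, and in normal livers 11.71 or more. By correlation over all genes, 6 arrays lay closer to the mean of the other tissue, namely tumors 1, 20 and 24 and normal livers 16, 26 and 27. The Xist and Y-linked signals of 7 arrays went against the gender label. Among marker lists, 9 of 9 dividing cell genes rose in tumors, 1 of 13 hepatocyte genes fell and 1 rose, and 5 of 11 Kupffer cell and macrophage genes and 5 of 9 sinusoidal endothelial genes fell while 1 of each rose. Of 8 cholangiocyte genes 5 fell and 0 rose, and of 10 stellate cell and fibroblast genes 4 fell and 4 rose. The part of cell composition in the results below was not tested, and in whole tissue fewer cells of a type and less RNA per cell cannot be told apart.

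All 10 carboxylesterase genes fell in tumors. Their changes ran from a 7.28-fold lower level of Ces1g to a 1.35-fold lower level of Ces2e, and 8 of the 10 were lower by at least 1 on the log2 scale. Over all 22180 genes, 14.3% were called lower in tumors and 17.9% higher, and 0.947% were called lower by at least 1. None of the 10 was called higher. Calls came from limma with the animal as a random block, at an adjusted p under 0.05. The median change of all genes was -0.02 on the log2 scale. Without tumor 9, 9 genes passed the same test and Ces2e, at -0.34, did not (limma adjusted p = 0.0755). With the 22 arrays of animals that gave a single tissue, or 2 tumors, analysed alone, 4 of the 10 passed (Ces1d, Ces1e, Ces1g and Ces2a) and all 10 differences were below 0. That fit had no animal block, so the 2 tumors of 1 animal counted as separate there.

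**Figure D1:**
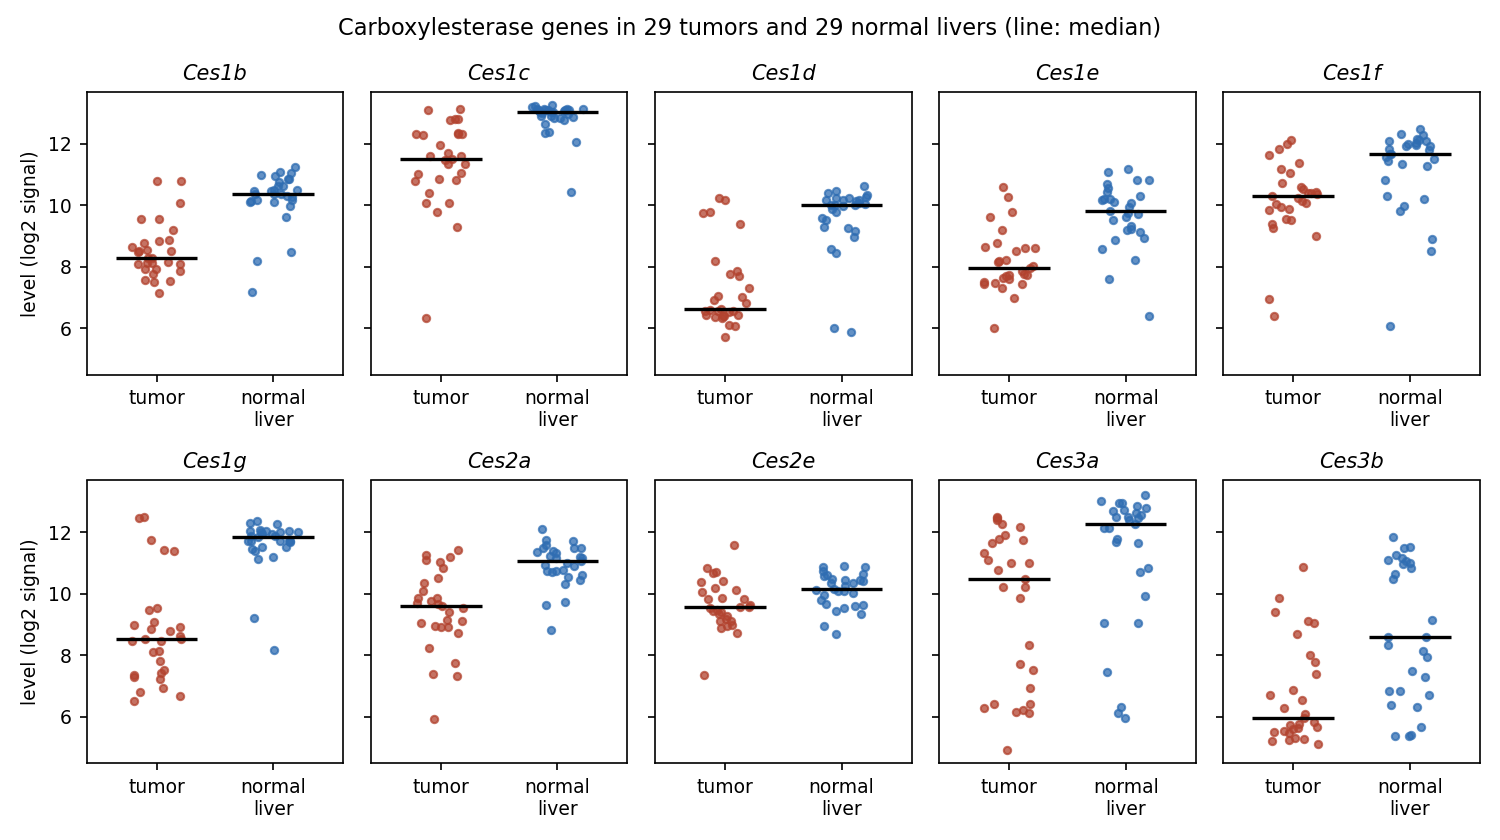
Levels of the 10 carboxylesterase genes (log2 signal, vertical axis) in 29 tumors (left, red) and 29 normal livers (right, blue), with a point per array and a line at the median. The tumor median lies below the normal liver median in every panel, with Ces1g at 8.54 against 11.86, and points of both tissues overlap in all 10 panels.

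The 6 members of the Ces1 subfamily included the deepest change. Ces1g is an enzyme of the endoplasmic reticulum whose loss in mice leads to fatty liver and raised blood lipids. It read 6.51 to 12.48 in tumors (median 8.54), against 8.18 to 12.35 in normal liver (median 11.86), on the log2 scale. Its tumors fell into separate sets, with 24 arrays at or below 9.53, 5 at or above 11.39 and none between, and 12 tumors lay below the lowest normal liver. The log2 change of Ces1g was -2.86 (SE 0.33; limma adjusted p = 5.4e-10).

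Ces1d, known as triacylglycerol hydrolase, releases fatty acids from stored triglyceride for the assembly of very low density lipoprotein. It read 5.71 to 10.24 in tumors (median 6.62), against 5.89 to 10.63 in normal liver (median 9.99). Most tumors were low and 27 of 29 lay below the normal median, yet 2 normal livers, 19 and 27, were as low as the tumors. The log2 change was -2.29 (SE 0.30; limma adjusted p = 1.3e-08), a 4.89-fold lower level. Ces1f, a lipid hydrolase of mouse liver, read 6.41 to 12.12 in tumors (median 10.29), against 6.08 to 12.47 in normal liver (median 11.67). Here the tissues overlapped most within the Ces1 group, since no tumor lay below the lowest normal liver and 6 normal livers lay below the tumor median. Ces1f fell by 0.99 on the log2 scale (SE 0.32; limma adjusted p = 0.013).

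Ces1c encodes the secreted carboxylesterase of mouse plasma, which hydrolyses ester drugs in the blood. It read 6.32 to 13.12 in tumors (median 11.50), against 10.42 to 13.26 in normal liver (median 13.04). Normal livers lay close together apart from normal 27, at 10.42, with 28 of 29 at 12.06 or more, and 6 tumors lay below the lowest of them. The mean was 11.35 ± 1.40 in tumors and 12.86 ± 0.54 in normal liver (SD, n = 29 each), a log2 change of -1.52 (SE 0.26; limma adjusted p = 4.9e-06). Ces1e, or egasyn, holds part of the beta-glucuronidase of mouse liver in the endoplasmic reticulum. It read 6.00 to 10.58 in tumors (median 7.97), against 6.41 to 11.19 in normal liver (median 9.80), and fell by 1.48 on the log2 scale (SE 0.25; limma adjusted p = 3.6e-06). Ces1b, a further liver member, read 7.16 to 10.80 in tumors (median 8.29), against 7.17 to 11.24 in normal liver (median 10.37). It fell by 1.72 on the log2 scale (SE 0.22; limma adjusted p = 7.6e-09), and 27 of 29 tumors lay below the normal median.

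The Ces2 enzymes favour esters with a bulky alcohol and a small acyl group, and also act on glycerides. Ces2a read 5.94 to 11.42 in tumors (median 9.59), against 8.82 to 12.10 in normal liver (median 11.06). In 6 tumors it lay below the lowest normal liver, while 4 tumors (1, 13, 24 and 25) lay above the normal median. The log2 change of Ces2a was -1.47 (SE 0.25; limma adjusted p = 4.9e-06), a 2.76-fold lower level. Ces2e, expressed in mouse intestine and liver, changed least. It read 7.35 to 11.59 in tumors (median 9.56), against 8.69 to 10.90 in normal liver (median 10.16), and the highest of all 58 arrays was tumor 15. Its change of -0.44 (SE 0.17; limma adjusted p = 0.043) lost its call in 25 of the 58 repeats that left out 1 array, with adjusted p between 0.0131 and 0.0758 over all repeats.

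The Ces3 genes, expressed mainly in liver in the mouse, had the largest SDs of the 10 in normal liver, at 2.23 for Ces3a and 2.24 for Ces3b. Ces3a read 4.91 to 12.49 in tumors (median 10.47), against 5.96 to 13.20 in normal liver (median 12.26). In 11 tumors it stood at 8.32 or less and in the other 18 at 9.85 or more, and 4 normal livers stood at 7.46 or less. The log2 change was -1.66 (SE 0.56; limma adjusted p = 0.018). It was -1.47 (limma adjusted p = 0.0745) without the 7 arrays that went against their gender label. Ces3b read 5.10 to 10.87 in tumors (median 5.97), against 5.38 to 11.86 in normal liver (median 8.58). The widest gap of Ces3b was inside normal liver, where 17 arrays stood at 9.15 or less and 12 at 10.48 or more. Only tumor 8, at 10.87, reached the upper range. The log2 change of Ces3b was -1.99 (SE 0.47; limma adjusted p = 0.00063), and its SD was 1.64 in tumors and 2.24 in normal liver.

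Of the 9 other measured carboxylesterases 4 fell, 0 rose and 5 did not pass the test. Ces2g, another Ces2 enzyme, averaged 8.91 ± 0.83 in tumors and 9.87 ± 0.53 in normal liver (SD, n = 29 each), a log2 change of -0.97 (SE 0.17; limma adjusted p = 9.3e-06). The other 3 that fell did so by small amounts, with -0.20 for Ces2f, -0.19 for the pseudogene Ces2d-ps and -0.18 for Ces4a. Ces1a changed by 0.04, Ces1h by -0.04, Ces2b by -0.10, Ces2h by -0.13 and Ces5a by -0.09, none of them past the test. These are dim signals, with normal liver means between 5.21 for Ces2b and 6.94 for Ces1a, and no detection limit is known for the arrays. The tumor medians of Ces3b (5.97) and Ces1d (6.62) lie in the same range. The size of their changes, and the tumor SD of Ces3b, are therefore less certain. Ces2c and Ces6 had no cluster with a single symbol.

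All carboxylesterase genes measured lie on chromosome 8 in 2 groups, in the gene order of RefSeq. Around the Ces1 group, 1 of the 10 nearest measured genes was called, Gnao1, at -0.15 (SE 0.05; limma adjusted p = 0.019). Around the Ces2 and Ces3 group, Cdh16 was lower (-0.15), Fbxl8 was higher (0.15) and the other 8 flanking genes did not pass. The gene 4932416K20Rik, which lies among the Ces2 genes, was lower by 0.15. The neighbour with the largest difference was Mmp2, at 0.38 (SE 0.25), which did not pass. Changes of 1 or more on the log2 scale were found in 8 of the 19 measured carboxylesterases and in 0 of the 21 other genes of both stretches. Over all genes, 0.947% were called lower by at least 1, so 0 of 21 does not set the neighbours apart from other genes.

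**Figure D2:**
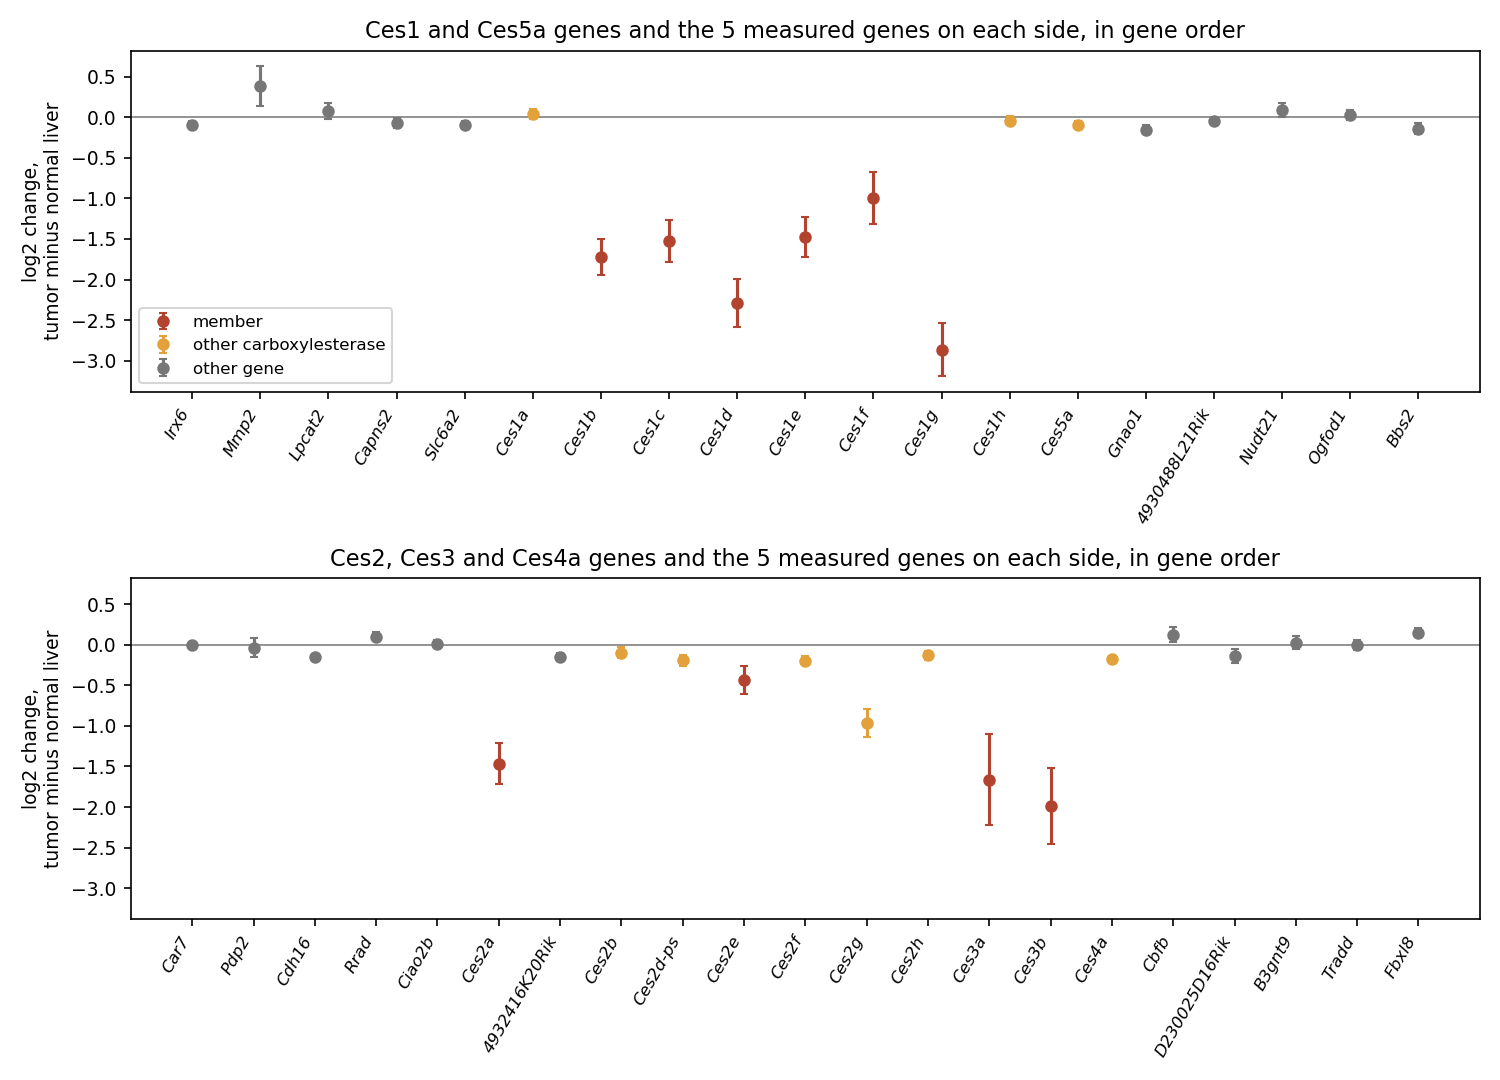
Log2 change, tumor minus normal liver (vertical axis, error bars SE), of the carboxylesterase genes and their nearest measured neighbours in gene order, with the Ces1 group above and the Ces2, Ces3 and Ces4a group below. Red points are the 10 genes described, orange points other carboxylesterases and grey points other genes; Ces1g lies lowest at -2.86 and the grey points lie between -0.15 and 0.38.

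Set against the median of the normal livers, the genes mostly moved together from array to array, with exceptions. In 5 tumors, numbers 1, 19, 24, 25 and 27, none of the 10 genes lay 1 or more below the normal median, and these are the 5 with Ces1g at or above 11.39. Their hepatocyte marker means were 12.51, 12.37, 12.36, 12.72 and 12.49, and their dividing cell marker means were 7.88, 9.37, 7.81, 8.27 and 8.20. For dividing cell markers the median was 8.21 in tumors and 7.33 in normal liver, and the highest normal liver value was 8.28, in normal 19. These 5 also had the 5 highest sinusoidal endothelial means of all tumors, from 9.79 to 10.09, against a tumor median of 8.91 and a normal liver median of 9.58. Their Kupffer cell and macrophage means ran from 9.52 to 10.54, against a tumor median of 8.86 and a normal liver median of 9.83. The part of these cells in the higher carboxylesterase levels was not tested. Each of the other 24 tumors had at least 5 genes lower by 1 or more, and tumors 3, 9, 12, 23, 26 and 29 had all 10. In tumor 9 the median difference over the 10 genes was -4.45, the lowest of any array. Of these 24 tumors, 4 had any gene above the normal median. Tumor 8 had 3 such genes (Ces3b by 2.29, Ces2e by 0.22 and Ces3a by 0.14), and tumors 13, 15 and 20 had 1 each (Ces2a by 0.36, Ces2e by 1.44 and Ces3b by 0.49).

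**Figure D3:**
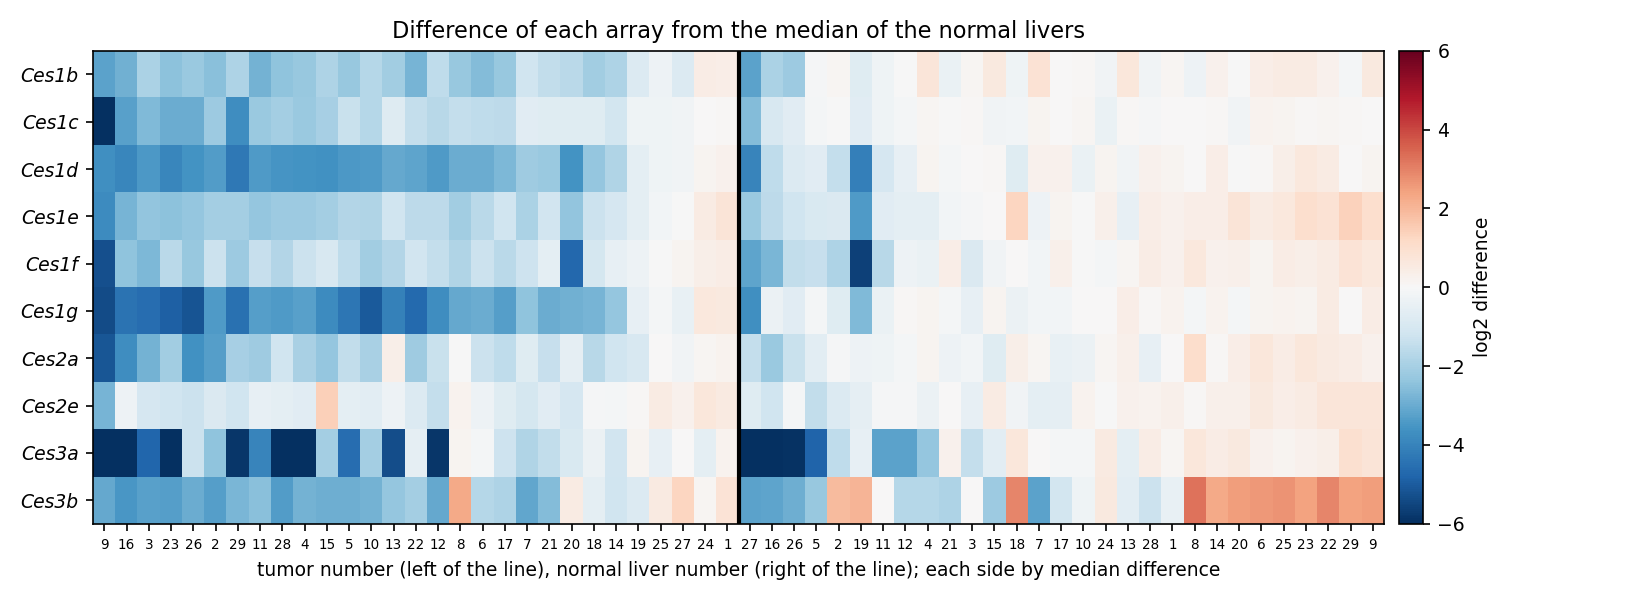
Difference of each array from the median of the normal livers (colour, log2; blue is lower, and the colour scale ends at 6 in both directions) for the 10 genes in rows and 58 arrays in columns. Tumors stand left of the black line and normal livers right of it, each ordered by their median difference; tumors 19, 25, 27, 24 and 1 at the right end of the tumors are pale like normal livers, and normal 27 is blue in all rows.

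Normal livers 27, 16 and 26 stood at the other end. In normal 27 all 10 genes lay below the normal median and 9 of them by 1 or more, with Ces1g at 8.18 and Ces1d at 6.02. In normal 16 the count was 8 and in normal 26 it was 6. The hepatocyte marker means were 12.42, 11.83 and 12.28 in normal livers 27, 16 and 26, within the range of normal liver. For other cell types, normal 16 had the highest cholangiocyte (8.70, normal liver median 6.73), Kupffer cell and macrophage (11.11, median 9.83) and stellate cell (10.28, median 9.10) means of all normal livers. Its neutrophil marker mean was 9.27, against a normal liver median of 6.78. In normal 27 the sinusoidal endothelial mean was 9.04, against a normal liver median of 9.58 and a lowest normal liver value of 9.01. Normal 19 had a pattern of its own, in which Ces1f (6.08), Ces1d (5.89), Ces1e (6.41) and Ces1g (9.20) were low while Ces1b (9.63), Ces1c (12.37), Ces2a (10.74) and Ces3a (11.78) were less than 1 below the normal median. Tumor 20 of the same animal also had low Ces1f (6.97, tumor median 10.29), and its Ces1c was 12.31. Its Ces1d, at 6.42, was near the tumor median of 6.62. Neutrophil markers were high in both arrays, with a mean of 10.19 in tumor 20, the highest of all tumors (median 6.67), and of 10.38 in normal 19, the highest of all normal livers. The part of these cell types in the low values was not tested.

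The comparison within an animal sets each tumor against normal liver of the same animal. In the 18 animals with both tissues, Ces1b, Ces1c and Ces1g were lower in the tumor of 17, Ces1d, Ces1e and Ces2a in 16, Ces3a and Ces3b in 15, Ces1f in 13 and Ces2e in 12. With the animal as a fixed block, 9 of the 10 genes fell, against 8.13% of all genes called lower. The within-animal change of Ces1g was -3.07 (SE 0.36; limma adjusted p = 1.3e-05) and that of Ces1b was -2.01 (SE 0.21). Ces2e, at -0.34 (SE 0.22, limma adjusted p = 0.30), did not pass in this fit of the 18 animals. Leaving out 1 pair at a time kept 8 or 9 genes called, and Ces1f lost its call in 5 of these 18 repeats, without the pairs of tumors 3, 6, 8, 10 and 13 (adjusted p 0.0523 to 0.0634). In the animal of tumor 1, each of the 10 genes was higher in the tumor than in the normal liver, by 0.07 for Ces1c to 1.26 for Ces3b. In the animal of tumor 20, Ces1f, Ces1e and Ces1d were higher in the tumor by 0.88, 1.03 and 0.53, and the normal liver of that animal held the lowest value of all 29 for each of the 3.

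**Figure D4:**
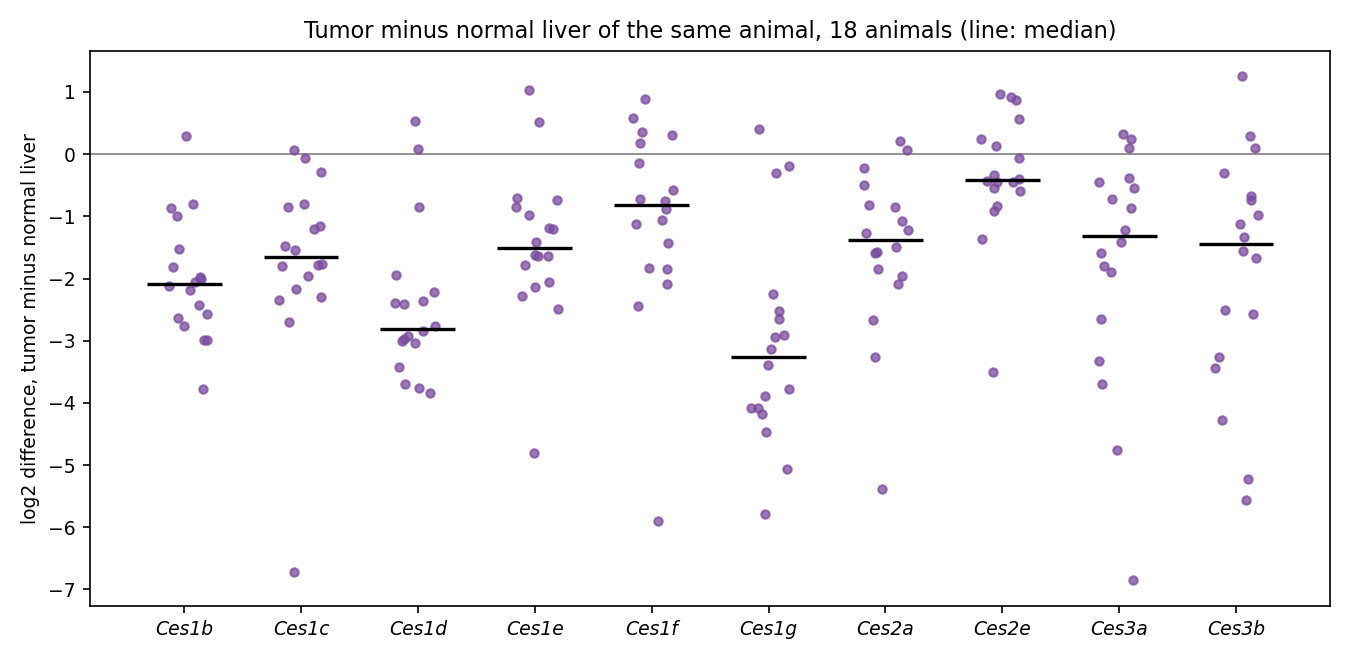
Log2 difference, tumor minus normal liver of the same animal (vertical axis), with a point for each of 18 animals and a line at the median, for the 10 genes. Most points lie below 0, the median is lowest for Ces1g at -3.26 and highest for Ces2e at -0.42, and between 1 animal (Ces1b, Ces1c and Ces1g) and 6 animals (Ces2e) lie above 0.

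Spread between arrays was compared by the absolute deviation of each array from the median of its tissue. Ces1c varied more in tumors than in normal liver, with an SD of 1.40 against 0.54, and was the 1 member called (limma adjusted p = 0.049), where 0.987% of all genes were called. Its call was lost in 42 of the 58 repeats that left out 1 array (adjusted p up to 0.0745) and was kept without tumor 9 (adjusted p = 0.0192). Ces1g had an SD of 1.69 in tumors and 0.87 in normal liver (adjusted p = 0.14) and among the same 58 repeats passed without normal 27 alone (adjusted p = 0.0252). The SD of Ces2a was 1.30 in tumors and 0.69 in normal liver (adjusted p = 0.31). In a simulation with a tumor SD set to 2 times the normal one, the test recovered 17% of changed genes, when 100 of 22180 genes were changed.

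How the genes varied with each other was examined in the 24 tumors at or below 9.53 for Ces1g, which come from 23 animals, because the other 5 tumors form a separate set too small for a correlation. The cut was set on Ces1g, itself a member, after its values were seen. It limits the range of Ces1g in its own pairs, and the permutation p does not allow for this choice. Of the 45 pairs of genes, 24 had a Pearson r with an adjusted permutation p under 0.05 (25 by Spearman's rho), with r from -0.10 to 0.82 and a median of 0.47. No share among pairs of other genes stands beside these counts, so they do not set the family apart from other genes. Without tumor 9, which is low for all 10, 11 pairs passed (17 by Spearman's rho) and the median r was 0.38. Ces1c and Ces1d had r = 0.60 and rho = 0.75 over 23 animals (permutation test, adjusted p = 0.00877 and 0.00101), and r = 0.77 over 22 without tumor 9. Without the 2 animals farthest from the Ces1c median, r was 0.72. Ces1c and Ces2a had r = 0.81 and rho = 0.78 (adjusted p = 0.0009 and 0.00101), 0.77 without the 2 farthest animals and 0.70 without tumor 9. Ces3a and Ces3b had r = 0.64 and rho = 0.76 (adjusted p = 0.0009 and 0.00101), 0.61 without the 2 farthest animals and 0.64 without tumor 9. Ces1b and Ces1c, the pair with the long shared upstream run, had r = 0.63 and rho = 0.61 (adjusted p = 0.00409 and 0.00925). That fell to 0.40 without the 2 farthest animals and to 0.48 without tumor 9 (adjusted p = 0.0733). Ces1c and Ces1f had r = 0.58 and rho = 0.47 (adjusted p = 0.0344 and 0.0469), but r was 0.09 without the 2 farthest animals, so the Pearson relation rests on those animals. Without tumor 9 their rho was 0.39 (adjusted p = 0.122). Whether shared probe sequence enters these relations was not tested.

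**Figure D5:**
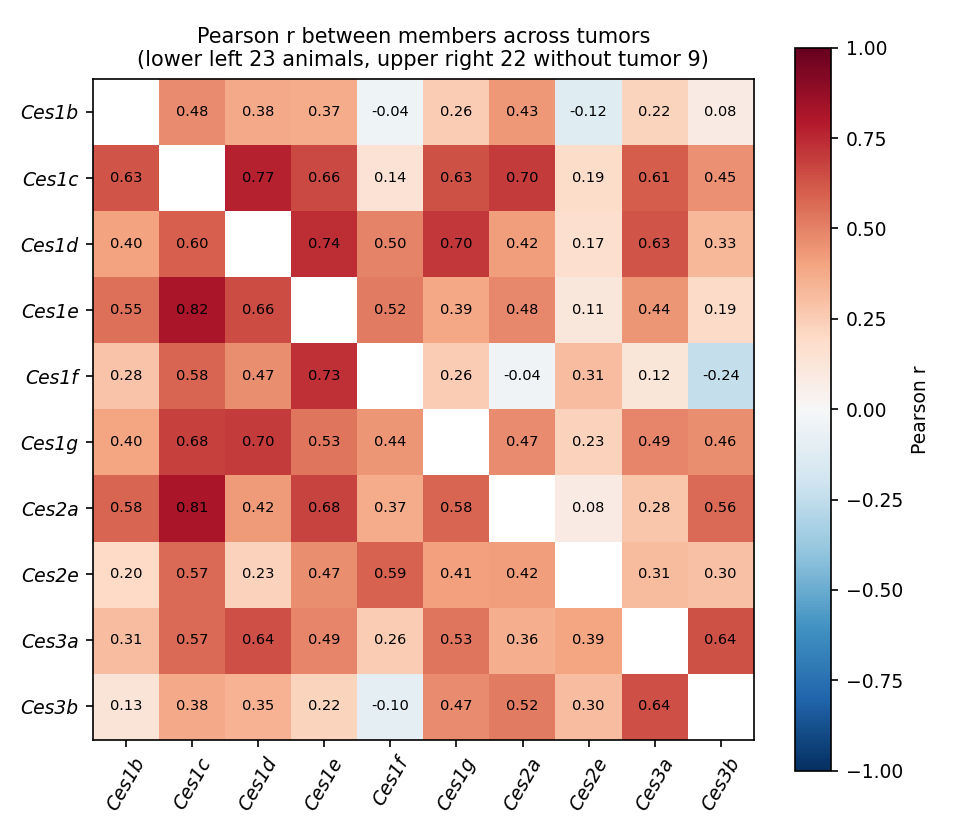
Pearson r (colour and number) between the levels of each pair of the 10 genes across tumors at or below 9.53 for Ces1g, with 23 animals below the diagonal and 22, without tumor 9, above it. Of the 45 values below the diagonal 38 are larger than their counterpart above it; Ces1c with Ces1d and Ces3a with Ces3b keep 0.77 and 0.64 above it.

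Outside the family, the genes most like a member over all 29 tumors differed between members. These values are descriptions over arrays that include tumor 9 and the 5 tumors above the gap in Ces1g, and r was lower for several members in the 24 tumors below the gap. Tumor 9 is also among those 24, with Ces1c at 6.32 against 9.29 in the next lowest tumor. The values of r without tumor 9 are not given here, so its part in r below the gap is not known. Ces1g was most like Cyp2c50 (r = 0.91), Slc22a26 (0.91) and Cyp2c37 (0.91), among which the Cyp2c genes encode drug-oxidising P450 enzymes, and Cyp2c50 itself fell by 2.93. Below the gap r with Ces1g was 0.69, 0.60 and 0.70, and in normal liver 0.63, 0.32 and 0.66. Ces1c was most like Proc (0.94), 1300017J02Rik (0.93) and F9 (0.93), of which Proc and F9 encode plasma proteins of coagulation, with r of 0.92 to 0.94 below the gap and 0.68 to 0.84 in normal liver. Ces1f was most like Cat (0.92), Gsta3 (0.92) and Car8 (0.90), where Cat is the peroxisomal catalase, with r of 0.93, 0.92 and 0.85 below the gap and 0.83, 0.92 and 0.84 in normal liver. Ces3a was most like Mup3 (0.94), which encodes a major urinary protein, and the complement genes C8a (0.90) and C9 (0.87), with r of 0.87 to 0.92 below the gap and 0.81 to 0.95 in normal liver. Ces1d was most like Sdr9c7, Adra1b and Cyp2c69 (each 0.90), and Ces1e like Adra1b (0.91), Nat8f1 (0.90) and Agmo (0.88). Below the gap these were 0.66, 0.67 and 0.57 for Ces1d and 0.74, 0.65 and 0.64 for Ces1e, and in normal liver 0.61 to 0.79 for Ces1d and 0.75 to 0.81 for Ces1e. Ces1b was most like Wfdc1 (0.91), Lama1 (0.89) and Cyp2d40 (0.87), with 0.66, 0.68 and 0.66 below the gap and 0.13, 0.32 and 0.75 in normal liver. Ces2a was most like Acnat2 (0.88), Sdr42e1 (0.87) and the bile acid importer Slc10a1 (0.87), and Ces2e like Slc17a4 (0.87), Cgnl1 (0.84) and Lrp4 (0.83). Below the gap r was 0.82 to 0.87 for the genes like Ces2a and 0.78 to 0.81 for those like Ces2e, and in normal liver it was 0.26 for Acnat2 and 0.17 for Slc17a4. Ces3b was most like Tex12 (0.83), Hsd17b6 (0.83) and Cyp2c54 (0.82), with 0.70 to 0.78 below the gap and -0.05, 0.71 and 0.70 in normal liver.

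Labelled sex made no difference that passed the test. In normal liver 0 of the 10 genes were called between females and males, where 0.0496% of all genes were, and in tumors 0 were called, where 0.0225% were (limma; 819 and 2209 genes at an unadjusted p under 0.05). Ces3b averaged 9.04 ± 2.10 in normal liver of labelled females (n = 9) and 8.63 ± 2.33 in that of labelled males (n = 20). Ces1b averaged 8.90 ± 1.15 in tumors of labelled females (n = 11) and 8.34 ± 0.67 in those of labelled males (n = 17), a difference of 0.61 (SE 0.33; limma adjusted p = 0.528). The change of the tumor by labelled sex was not called for any of the 10 or for any gene (0% of genes; 1004 at an unadjusted p under 0.05), so the differences between labelled sexes in the tumor change, from 0.08 for Ces3b to 0.72 for Ces1g, did not pass. Leaving out the 7 arrays that went against the label gave 0 called in each comparison as well, with 1 member, Ces1b in tumors, at an unadjusted p under 0.05.

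The marks were compared in normal livers labelled male, 4 with -/- and 5 with +/-, since the -/- tumors include both labelled sexes. In normal 15, 1 of the 5 +/- livers, the Xist and Y-linked signals went against the male label. Normal 26 (+/-) and normal 27 (-/-) have the same animal number in their titles. Of the 10 genes 0 were called, and 0% of all genes were (limma; 1461 genes at an unadjusted p under 0.05). Ces3b averaged 8.86 ± 2.93 in -/- livers and 6.45 ± 1.02 in +/- livers (SD, n = 4 and 5), a difference of 2.41 (SE 1.09; limma adjusted p = 0.757). Ces1g averaged 10.99 ± 1.90 in -/- livers and 11.84 ± 0.41 in +/- livers, a difference of -0.85 (SE 0.69; limma adjusted p = 0.858). Normal 27, the low array, is 1 of the 4 -/- livers, and without it the Ces3b difference was 3.56 (limma adjusted p = 0.269).

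Enzymes that work beside the carboxylesterases changed in part. Of 18 other liver ester and epoxide hydrolases 5 fell, 1 rose and 12 did not pass, with a median log2 change of -0.09. Over all genes 14.3% were called lower and 17.9% higher, and the list counts here and in the next paragraph are to be read against these shares. Pon1, the plasma paraoxonase carried on high density lipoprotein, averaged 9.57 ± 1.88 in tumors and 12.18 ± 1.09 in normal liver and fell by 2.62 (SE 0.37; limma adjusted p = 1.2e-07). The lipid hydrolases Pnpla3 and Mgll also fell, with log2 changes of -1.57 and -0.75, as did the acyltransferase Lcat (-0.85) and the arylacetamide deacetylase Aadac (-0.94). Pnpla2, or adipose triglyceride lipase, was higher by 0.35 (limma adjusted p = 0.024). Of 16 genes of triglyceride storage and lipoprotein assembly 4 fell, 3 rose and 9 did not pass. Dgat1 and Mogat1, which make triglyceride and diglyceride, were higher by 1.30 and 0.71, and Cidec, a lipid droplet protein, by 1.10. Gpam, the first enzyme of glycerolipid synthesis, fell by 0.76, and Dgat2 fell by 0.45. Mttp and Apob, needed for lipoprotein assembly, changed by -0.32 (SE 0.18) and -0.40 (SE 0.20) and did not pass.

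Of 17 transcription factors and receptors known to act on carboxylesterase or other drug metabolism genes, 6 fell, 1 rose and 10 did not pass. Nr1i3, the constitutive androstane receptor that responds to drugs, averaged 8.56 ± 1.31 in tumors and 11.35 ± 0.97 in normal liver, a log2 change of -2.78 (SE 0.28; limma adjusted p = 1.3e-11). It was lower in the tumor of 17 of 18 animals. Nr1i2, the pregnane X receptor, changed by -0.12 (SE 0.19) and did not pass. The bile acid receptor Nr1h4 (-0.95) and the aryl hydrocarbon receptor Ahr (-0.78) fell, and Rxra (-0.28), Hnf4a (-0.33) and Cebpa (-0.35) fell by less. The coactivator Ppargc1a was higher by 2.04 (SE 0.24; limma adjusted p = 2e-09). Of 7 genes of beta-glucuronidase and of retention in the endoplasmic reticulum, Gusb was higher by 0.86 (SE 0.14; limma adjusted p = 2e-06), while Ces1e, which holds it in the endoplasmic reticulum in mouse liver, fell. The retention receptors Kdelr3 and Kdelr1 changed by 0.32 and -0.17, both past the test. Of 11 phase I and II partners 2 fell, the sulfotransferase Sult2a8 (-2.20) and the flavin monooxygenase Fmo1 (-0.79), and 9 did not pass, among them Ugt2b1 at -0.58 (SE 0.29).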

How the data were processed

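RNA of 29 liver tumors and 29 normal livers was amplified, labelled with biotin and hybridised to Affymetrix whole-transcript arrays, per the labels' protocols. The deposited values are log2 signals; the submitters' processing notes name Affymetrix Expression Console as the authors' software. No source used here names the version, summarisation method or build. Array medians ran from 6.72 to 7.15. Scanner files were not used here, so detection limits and hybridisation batches were not examined. The number of arrays limits the precision.

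Of 41345 clusters, 23521 carried 1 gene symbol, 1814 several and 16010 none. The brightest single-symbol cluster stood for each of 22180 genes. Groups came from the tissue label and animals from the titles. Arrays of an animal deviated together with a median correlation of 0.241 (range -0.196 to 0.539, over 0.1 in 15 of 18 pairs).

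Tests were run in R 4.3.3 with limma 3.58.1 (lmFit, duplicateCorrelation, eBayes with trend; statmod 1.5.0) and Benjamini-Hochberg adjustment over all genes. Correlations between members used 100000 permutations with adjustment over 45 pairs (smallest p 1e-05). They were planned over all tumors and were kept to the tumors below the gap in Ces1g, because the tumors fell into 2 sets. Simulated log2 changes of 1 were recovered in 98% of changed genes for tissue and in 97% for pairs. For labelled sex in normal liver the share was 95%, and for the marks 70%. The changed genes were drawn at random from all genes, each with its own SD in normal liver. Among the members, the SE of the sex difference in normal liver reached 0.90 and that of the mark difference 1.50, both for Ces3a. The shares therefore need not hold for the members. Figures used matplotlib 3.10.9 in Python 3.11.15.

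The members, the gene lists and the rules were chosen with earlier results of these data known. The text names all members, all other measured carboxylesterases, up to 3 genes of smallest adjusted p and the gene of largest change per list, the 3 genes most like each member, and called neighbours. Nr1i2, Mttp, Apob, Mmp2 and further called list genes were named after their values were seen. Alternatives covered normalisation, blocking, arrays left out, the genes tested and the reading of titles.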

Additional observations from a re-analysis of the deposited data

Results flagged for a closer look

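In small groups of 4 to 10 normal livers, 10 values lay far from the rest of their group by the ratio of the gap to the range (Dixon's 95% limit). Of 20 tests per group (each end of each gene), 6 exceeded the limit in -/- male livers, 3 in livers of labelled females and 1 in +/- male livers. At this limit chance alone passes up to about 1 test in 20, so with 20 tests per group a single flag is not rare. Flags of 1 array for several genes are not independent of each other. Male here is the label, which the Xist and Y-linked signals of normal 15, a +/- liver, went against.

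All 6 in -/- male livers were the low values of normal 27, at 7.17 for Ces1b, 10.42 for Ces1c, 6.02 for Ces1d, 8.50 for Ces1f, 8.18 for Ces1g and 5.96 for Ces3a, while the next lowest -/- liver stood at 10.36, 12.83, 9.96, 11.95, 11.69 and 12.13 for the same genes. In livers of labelled females, normal 19 was low for Ces1d (5.89) and Ces1g (9.20) and normal 16 for Ces2a (8.82). In +/- male livers normal 26 was low for Ces1b (8.20). Normal livers 16, 26 and 27 are also the 3 that lay closer to the tumor mean over all genes.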

How the results depend on the processing

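The count of 10 members called lower was 9 or 10 under 13 of 14 settings and with any 1 array left out (9 to 10), and 4 with the animals that gave a single tissue, or 2 tumors, taken alone (703 genes lower and 1370 higher, against 3166 and 3964 over all arrays). The setting with 4 also had no animal block. With the animal as a fixed replicate block in 18 pairs, which leaves out the arrays of all other animals, 9 members and 1804 genes were called lower. Ces2e lost its call in this setting and no other member did. The parts of the block and of the fewer arrays in this loss were not tested. Leaving out a pair gave 8 to 9. Ces2e lost its call in 5 of 14 settings, among them labelled sex as a covariate (adjusted p = 0.0505) and all transcript clusters tested (adjusted p = 0.0513). The number of all genes called lower was 6169 with array weights, 5528 without the 6 arrays closer to the other tissue (added after seeing the data), 5841 of all clusters and 1920 of the brighter genes. No member changed direction in any setting. The count of members more variable in tumors, 1, was 0 with quantile normalization and 0 to 2 with 1 array left out. The 24 related pairs became 11 without tumor 9, 28 with centred arrays and 44 over all 28 animals, a setting added after seeing the data in which the 5 separate tumors enter. Labelled sex and marks gave 0 members in every setting tried, marks with 1 array left out included. The causes of these shifts were not tested. No detection limit is known for dim genes, so small differences there may be missed.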
